A study of Mus musculus with 8 samples.

Results

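Cartilage rings hold the mouse trachea and carina open. The 10 genes described here, Acan, Hapln1, Matn1, Matn3, Comp, Chad, Cilp, Otor, Prg4 and Sox9, encode proteins of the cartilage matrix other than collagens, together with the transcription factor that turns such genes on. They were chosen by name, with earlier results of these data known. All 16 probe sets that carry 1 of these symbols and no other in the platform annotation were taken, out of 45037 probe sets and 18193 genes measured. The question asked of them was which were lower at 14 months by more than the differences in cartilage content between mice.

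RNA came from the distal trachea and carina of female C57Bl/6 mice, 4 young (2 month, mice 3, 4, 7 and 8) and 4 old (14 month, mice 1, 2, 5 and 6). The labels name no allele, transgene or treatment at either age. Each mouse was hybridised to its own Affymetrix Mouse Genome 430 2.0 array, so n = 4 mice per age throughout. The signal is a linear intensity in arbitrary units with the same trimmed mean of 500.002 on every array, and folds rest on log2 of that signal. The tissue is a mixture. Scgb1a1, the secretoglobin of club cells, had a mean signal of 28761 in old and 29858 in young mice, and Col2a1, the main fibril collagen of cartilage, one of 2184 and 2495, so that both epithelium and cartilage were present at both ages. In such bulk samples, fewer chondrocytes and less RNA per chondrocyte cannot be told apart.

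In hyaline cartilage, chondrocytes sit in a matrix of thin collagen fibrils filled with aggregates of proteoglycan. Aggrecan (Acan) carries the chondroitin sulfate chains that draw in water, and link protein (Hapln1) fastens it to hyaluronan. Matrilins (Matn1 and Matn3), Comp and chondroadherin (Chad) bridge fibrils, proteoglycans and cells. Cilp, cartilage intermediate layer protein, is a secreted glycoprotein also made by fibroblasts, otoraplin (Otor) is a small secreted relative of the chondrocyte protein Mia, lubricin (Prg4) lubricates surfaces, and Sox9 is the transcription factor that activates many of these genes.

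Otor, Cilp and Acan were lower in every old mouse than in any young mouse, and Comp was higher in every old mouse. None of the 16 probe sets passed an adjusted p under 0.05 from limma, against 0.0178% of all probe sets that passed as lower and 0.0533% as higher at 14 months. By unadjusted p under 0.05, the 3 lower ones were Otor, Cilp and Acan, and 5.41% of all probe sets were lower by that measure. Comp was the 1 that was higher, against 5.76% of all. Groups without overlap occurred in 3 of 16 with old mice below, against 3.75% of all probe sets, and in 1 of 16 with old mice above, against 4.05%. The fold threshold named in the methods, above 2 at an unadjusted p under 0.05, was met by Otor alone among lower members (0.802% of all probe sets) and by 0 higher members (1.19% of all). The study had selected Otor and Cilp as lower from these same arrays, so the counts of lower members give no independent evidence. The median log2 fold change, old minus young, was -0.18 over the 16 member probe sets and -0.0062 over all.

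**Figure D1:**
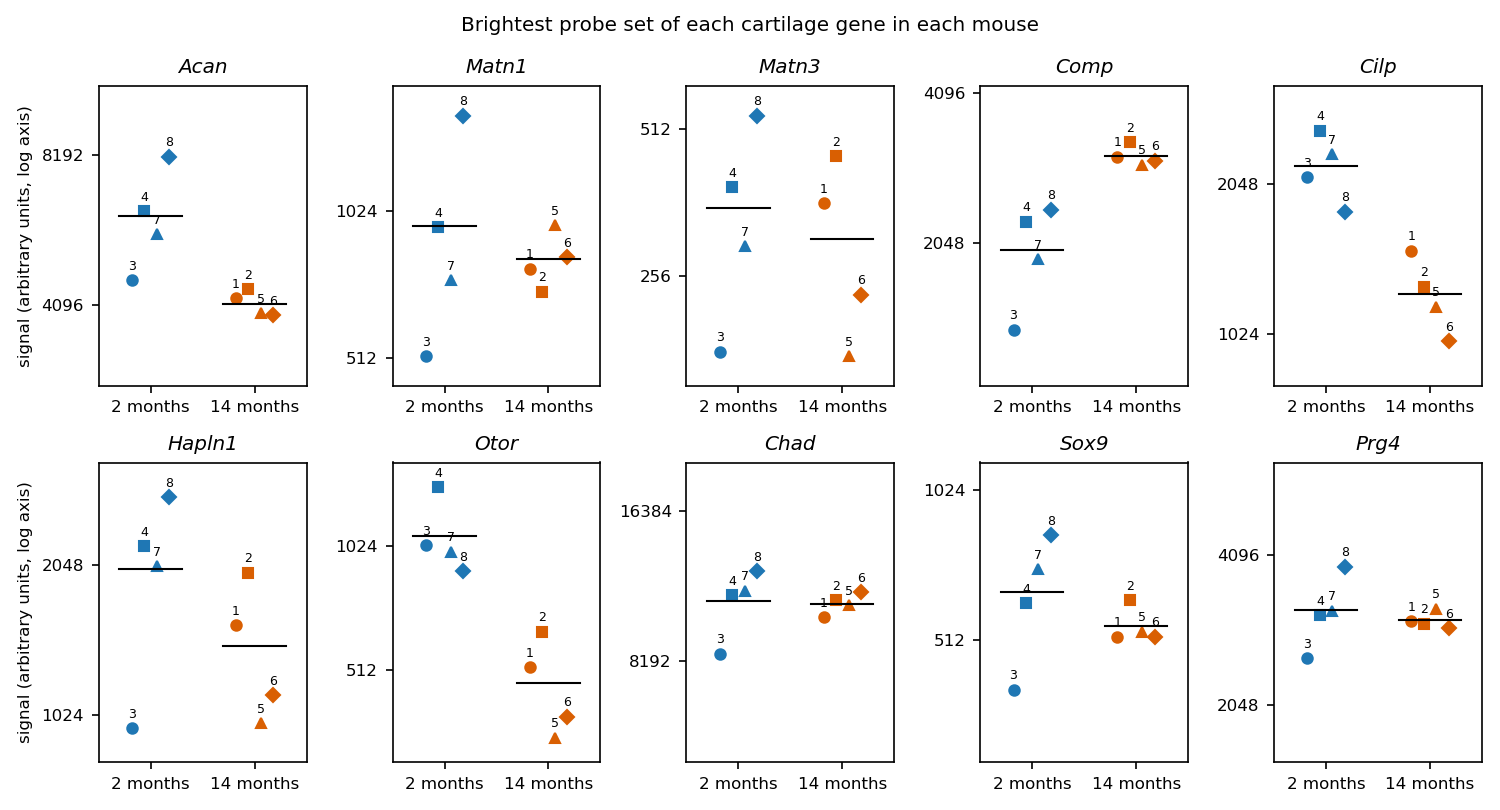
Signal of the brightest probe set of each gene by mouse (log axis, arbitrary units), with mouse numbers beside the points and a line at the mean of 4 mice. Otor, Cilp and Acan are lower and Comp is higher in all 4 old mice (orange) than in the young mice (blue), while the other 6 genes overlap between ages.

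The 250 bases before the annotated start were matched by symbol in RefSeq (GRCm38.p6) for 7 of the 10 genes, Acan, Matn1, Matn3, Cilp, Hapln1, Otor and Chad, and were not used for Comp, Sox9 and Prg4. Those of the 3 genes that were lower in every old mouse are shown, with that of Chad, whose mean differed least between ages. They lie on the + strand at chr2:143078143-143078392 (Otor), chr9:65264930-65265179 (Cilp), chr7:79052976-79053225 (Acan) and chr11:94564797-94565046 (Chad). Capitals mark the TATA word TATAAA.
Otor: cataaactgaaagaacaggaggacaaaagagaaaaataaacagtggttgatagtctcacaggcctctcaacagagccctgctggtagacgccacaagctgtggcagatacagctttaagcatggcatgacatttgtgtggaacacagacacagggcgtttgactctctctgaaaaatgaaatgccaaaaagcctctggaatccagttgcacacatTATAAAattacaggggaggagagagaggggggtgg
Cilp: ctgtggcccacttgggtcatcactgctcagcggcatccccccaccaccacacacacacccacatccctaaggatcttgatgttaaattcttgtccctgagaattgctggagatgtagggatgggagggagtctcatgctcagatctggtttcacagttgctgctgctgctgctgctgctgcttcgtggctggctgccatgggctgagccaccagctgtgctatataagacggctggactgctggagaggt
Acan: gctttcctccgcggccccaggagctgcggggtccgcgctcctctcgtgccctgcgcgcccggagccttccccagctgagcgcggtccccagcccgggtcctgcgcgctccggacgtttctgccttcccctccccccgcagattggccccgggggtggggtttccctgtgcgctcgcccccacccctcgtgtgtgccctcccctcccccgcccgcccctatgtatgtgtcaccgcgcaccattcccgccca
Chad: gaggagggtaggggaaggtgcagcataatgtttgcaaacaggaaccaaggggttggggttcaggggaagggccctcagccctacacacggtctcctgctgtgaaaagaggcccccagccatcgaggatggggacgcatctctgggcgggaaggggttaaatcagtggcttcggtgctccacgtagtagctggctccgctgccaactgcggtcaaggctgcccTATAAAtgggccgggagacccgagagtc
The windows differed in composition, with G or C at 46.0% of positions in Otor, 56.0% in Cilp, 60.4% in Chad and 74.4% in Acan. TATAAA, or its reverse complement TTTATA, was in the windows of Otor and Chad, where it began at position -35 and -28 from the start, and in 12.37% of all 32851 windows of that length. Only exact matches were counted, so the near match tatataag in the Cilp window is unmarked. The SOX word ACAAAG (reverse complement CTTTGT), searched on both strands, was in 0 of the 7 windows and in 16.46% of all. The shorter word ACAAT (reverse complement ATTGT) was in that of Hapln1 alone and in 27.66% of all. The TATA word and ACAAT were added after the first search.

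Among the large proteoglycan and its partner, Acan had signals of 4593, 6329, 5681 and 8140 in young mice 3, 4, 7 and 8 and of 4228, 4407, 3946 and 3907 in old mice 1, 2, 5 and 6. The old mice lay close together, and the lowest young mouse was just above the highest of them. Old mice averaged 4122 ± 238 (SD, n = 4) and young mice 6186 ± 1487 (SD, n = 4), which is 1.47-fold lower at 14 months, or -0.56 on the log2 scale (standard error 0.17, adjusted p = 0.301). Hapln1, read by 4 probe sets, overlapped between ages in each. Its brightest, 1438020_at, had signals of 964, 2231, 2035 and 2804 in the young and of 1548, 1977, 986 and 1121 in the old mice, so that young mouse 3 was the lowest of all 8. The log2 fold change was -0.46 (standard error 0.37, adjusted p = 0.687), with a 95% interval from -1.32 to 0.39. The other 3 Hapln1 probe sets were at -0.30, -0.27 and -0.14, with the same young mouse lowest among the young in each.

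Of the adaptor proteins, Comp was the 1 member that was higher in every old mouse. Comp, a secreted member of the thrombospondin family that binds fibril collagens in cartilage and tendon, had signals of 1375, 2265, 1904 and 2394 in young and of 3058, 3266, 2943 and 2998 in old mice. The gap between the highest young and the lowest old mouse was wider than the whole range of the old mice. Old mice averaged 3066 ± 141 (SD, n = 4) and young mice 1984 ± 456 (SD, n = 4), which is 1.58-fold higher at 14 months, or 0.66 on the log2 scale (standard error 0.18, adjusted p = 0.251).

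Chad, which binds collagen and integrins, averaged 10704 ± 523 (SD, n = 4) in the old mice against 10851 ± 1671 (SD, n = 4) in the young. The difference was -0.0071 on the log2 scale, and its 95% interval, from -0.31 to 0.29, leaves out a 2-fold change in either direction. Matn1 ranged from 515 in young mouse 3 to 1605 in young mouse 8, with all old mice between them at 699 to 957. Its log2 fold change was -0.11 (95% interval -0.87 to 0.65). Matn3 was at 178 to 546 in young and 175 to 451 in old mice by probe set 1422148_at, with a log2 fold change of -0.19 (95% interval -1.15 to 0.78). Probe set 1455948_x_at, of a kind prone to cross-hybridisation, gave 0.045 (95% interval -0.55 to 0.63). The ages could not be told apart in either matrilin.

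Otor differed most between ages among the 10 genes. Its signals were 1028, 1424, 993 and 888 in young mice 3, 4, 7 and 8 and 520, 634, 350 and 393 in old mice 1, 2, 5 and 6. Each old mouse was below the lowest young mouse by a clear margin. Old mice averaged 474 ± 128 (SD, n = 4) and young mice 1083 ± 235 (SD, n = 4), which is 2.31-fold lower at 14 months, or -1.21 on the log2 scale (standard error 0.23, 95% interval -1.74 to -0.68, adjusted p = 0.133).

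Cilp had signals of 2120, 2624, 2357 and 1805 in young and of 1508, 1276, 1165 and 993 in old mice. The groups were again apart, and the spread within each was small. Old mice averaged 1235 ± 216 (SD, n = 4) and young mice 2227 ± 348 (SD, n = 4), which is 1.81-fold lower at 14 months, or -0.85 on the log2 scale (standard error 0.17, 95% interval -1.24 to -0.47, adjusted p = 0.144). The study selected Otor and Cilp as lower from these same arrays, so their choice gives no independent evidence of direction. With the test run on the brighter probe sets only, Otor and Cilp passed as lower in old mice (limma, adjusted p = 0.0204 and 0.0238). With a trended and robust variance prior in limma they passed at 0.0104 and 0.0117, and Comp passed as higher at 0.0494. With age alone, Otor and Cilp passed an adjusted p under 0.05 in 2 of 19 alternatives each, and Comp in 1 of 19.

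Prg4, the lubricant of joint surfaces, averaged 3025 ± 117 (SD, n = 4) in the old mice against 3168 ± 548 (SD, n = 4) in the young, a log2 fold change of -0.051 (95% interval -0.36 to 0.26). For Sox9, which airway epithelium can express too, the brightest probe set, 1424950_at, averaged 546 ± 45.8 (SD, n = 4) in the old mice against 638 ± 180 (SD, n = 4) in the young, a log2 fold change of -0.18 (95% interval -0.68 to 0.32). The second, 1451538_at, gave -0.35 (95% interval -0.85 to 0.16). The third, 1433889_at, had low signals, of 9.76 to 55.3 over the 8 mice, and its log2 fold change of 0.59 (95% interval -0.72 to 1.91) is of the other sign. Sox9 overlapped between ages in all 3 of its probe sets.

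In most of these genes the young mice differed from each other more than the old mice did. The SD of log2 signal was larger in young than in old mice in 13 of the 16 probe sets, compared with 52.9% of all probe sets. Its median over the 16 was 0.46 in young and 0.26 in old mice, beside 0.25 and 0.23 over all probe sets. By brightest probe set, 8 of the 10 genes were lowest among the young in mouse 3 and highest in mouse 8. The other 2 genes were Cilp and Otor, both lowest in mouse 8 and highest in mouse 4. Among the old mice, mouse 2 was the highest in 6 of 10 genes, and mice 1 and 2 were both above mice 5 and 6 in 6 genes.

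Cartilage content was therefore read from genes outside the set. A score was made for each mouse as the mean over 6 cartilage collagens (Col2a1, Col9a1, Col9a2, Col9a3, Col11a1 and Col11a2) of log2 signal relative to the mean of 8 mice. It was -0.35, 0.57, 0.073 and 0.44 in young mice 3, 4, 7 and 8 and -0.059, 0.053, -0.45 and -0.28 in old mice 1, 2, 5 and 6. The young mice spanned a 1.90-fold range and the old a 1.42-fold range, and the ages overlapped through young mouse 3. The old mean was 0.37 lower (exact permutation test, two-sided, p = 0.171, where the smallest p that 4 mice against 4 allow is 0.0286). The 6 collagens were not alike. Col9a1, part of the type IX collagen on fibril surfaces, was at -1.01 (limma, adjusted p = 0.289) and Col11a1, a chain of the fibril core, at -0.74 (adjusted p = 0.400), whereas Col2a1 was at -0.12 (adjusted p = 0.920) and Col9a2 at 0.053. With 0 of 6 past an adjusted p under 0.05, their median log2 fold change was -0.22. At an unadjusted p under 0.05 from limma, 2 of 6 were lower, Col9a1 and Col11a1, against 5.41% of all probe sets. In the other direction, 0 of 6 were higher, against 5.76% of all.

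A score from 7 other chondrocyte genes (Cnmd, Mia, Snorc, Ucma, Epyc, Cytl1 and Scrg1) gave the other sign. It was -0.53, -0.027, -0.069 and 0.46 in young mice 3, 4, 7 and 8 and -0.067, 0.30, -0.064 and 0.0035 in old mice 1, 2, 5 and 6, with an old mean 0.084 higher (exact permutation test, two-sided, p = 0.743). Young mouse 3 was the lowest and young mouse 8 the highest of all by this score. Of its genes, 0 of 7 passed in either direction at an adjusted or an unadjusted p under 0.05 from limma, and the median log2 fold change was 0.10. These genes were not alike either. Of the 7, 5 were above 0, from 0.072 (Ucma) to 0.65 (Cnmd), and 2 were below, Snorc at -0.21 and Scrg1 at -0.65. Scrg1 was dim, at 46.2 to 141 over the 8 mice. Since the scores differed in sign, the age differences of the members are given against both.

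**Figure D2:**
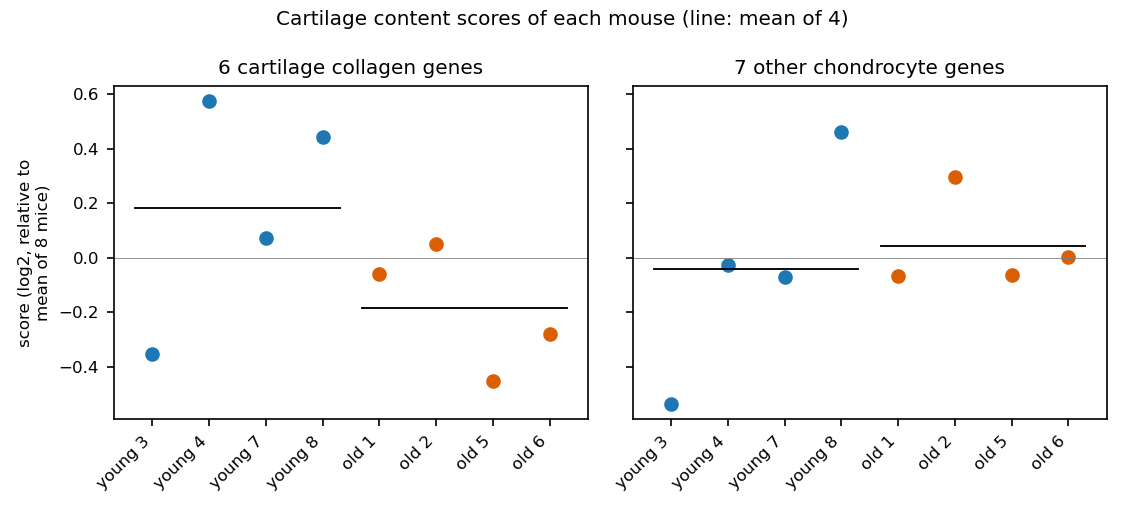
Cartilage content scores of each mouse, the mean of log2 signal over 6 cartilage collagen genes (left) or 7 other chondrocyte genes (right) relative to the mean of 8 mice, with a line at the mean of each age. Young mouse 3 is the lowest young mouse in both, and the old mean is 0.37 lower on the left and 0.084 higher on the right.

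With age and the collagen score in 1 limma fit, 9 of the 16 member probe sets had a slope above 0 on the score at an unadjusted p under 0.05, against 2.49% of all probe sets, and 0 had one below 0, against 1.8% of all. The 9 hold repeat readings of the same genes in the same mice, with all 4 probe sets of Hapln1 and both of Matn3. By the brightest probe set of each gene, Acan, Comp, Matn3 and Hapln1 passed. The other genes did not, among them Sox9 (1424950_at, limma, unadjusted p = 0.0641). At an adjusted p under 0.05 there were 0 slopes in either direction among members and among all probe sets, 0% of 45037. The median slope, the log2 change of a gene per unit of score, was 0.79 over the members and -0.012 over all. Matn3 (1422148_at) had a slope of 1.77 (standard error 0.33) and Hapln1 (1438020_at) one of 1.57 (standard error 0.29). Comp was at 0.71 (standard error 0.18), Acan at 0.61 (standard error 0.21) and Sox9 (1451538_at) at 0.88 (standard error 0.21). In the old mice, Matn3, Hapln1, Otor and Comp, each by its brightest probe set, followed the order of the score, from mouse 2 through 1 and 6 to 5. Cilp had the flattest slope of the 10 brightest probe sets, 0.21 (standard error 0.30).

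**Figure D3:**
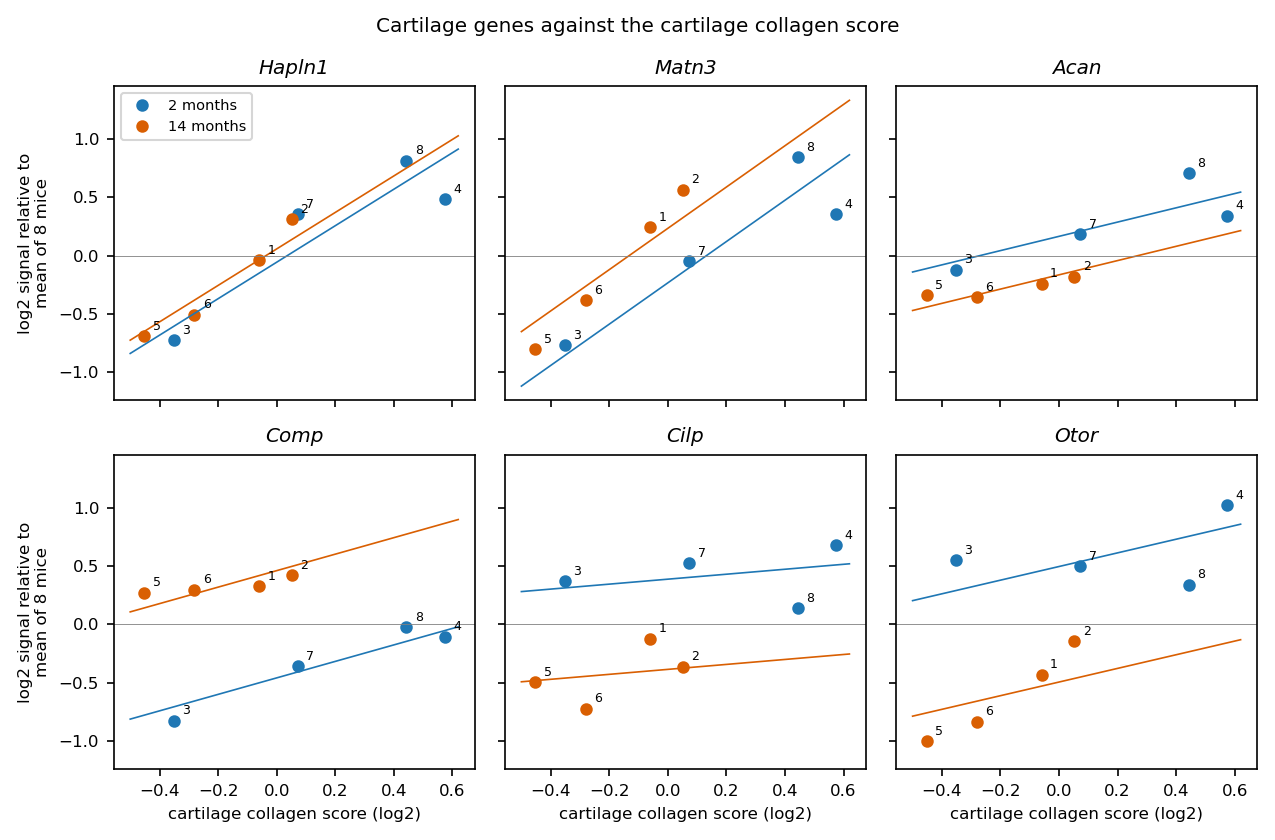
Log2 signal of 6 genes relative to the mean of 8 mice, against the cartilage collagen score, with mouse numbers and the fitted line of each age. The fit gives both ages the same slope, so the lines are parallel by construction, and a difference that changes with the score was not tested. Hapln1, by its brightest probe set, lies on nearly the same line at both ages (old minus young 0.11, standard error 0.20). Its other probe sets, not shown, were at 0.46, 0.17 and 0.32. The fitted lines of Otor, Cilp and Acan are lower and that of Comp is higher in old mice (orange). For Acan the interval of that difference runs from -0.68 to 0.015.

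At equal collagen score, Comp was still higher in old mice, by 0.92 on the log2 scale (standard error 0.12, 95% interval 0.63 to 1.21, adjusted p = 0.163). Otor was at -0.99 (standard error 0.24, 95% interval -1.57 to -0.41, adjusted p = 0.365) and Cilp at -0.77 (standard error 0.20, 95% interval -1.26 to -0.28, adjusted p = 0.394). Acan was closer to 0, at -0.33 (standard error 0.14, 95% interval -0.68 to 0.015, adjusted p = 0.554). Its unadjusted p was 0.0582, and it passed under 0.05 in 10 of 19 alternatives (0.000321 to 0.482). At an unadjusted p under 0.05, 2 of 16 member probe sets were lower, Otor and Cilp, against 4.32% of all, and 1 was higher, Comp, against 5.02% of all. Both lower genes had been selected by the study as lower from these same arrays, so their count gives no independent evidence. At an adjusted p under 0.05, 0 of the members passed, against 0% of all probe sets lower and 0.0133% higher. The other 12 probe sets had intervals that hold 0, and their values ran from -0.021 for Sox9 (1451538_at) to 0.63 for its probe set of low signal, 1433889_at. The median over the 16 was 0.15, beside -0.010 over all.

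Against the score of the other chondrocyte genes, the same 4 members kept their direction, Otor at -1.22, Cilp at -0.84, Acan at -0.62 and Comp at 0.60, with adjusted p-values from 0.130 to 0.216. For Matn1, both Matn3 probe sets, all 4 of Hapln1, Chad, Sox9 1424950_at and Prg4, the sign at equal score turned from positive to negative with that score. Young mouse 3 carried all of the overlap in collagen score between ages. Without it, the ages share no range of the score, so that a comparison at equal score extends the fitted lines beyond the mice, and the estimates at equal score were -0.55 for Otor (unadjusted p = 0.135), -0.68 for Cilp (0.0918), -0.45 for Acan (0.101) and 0.72 for Comp (0.00606), from limma.

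**Figure D4:**
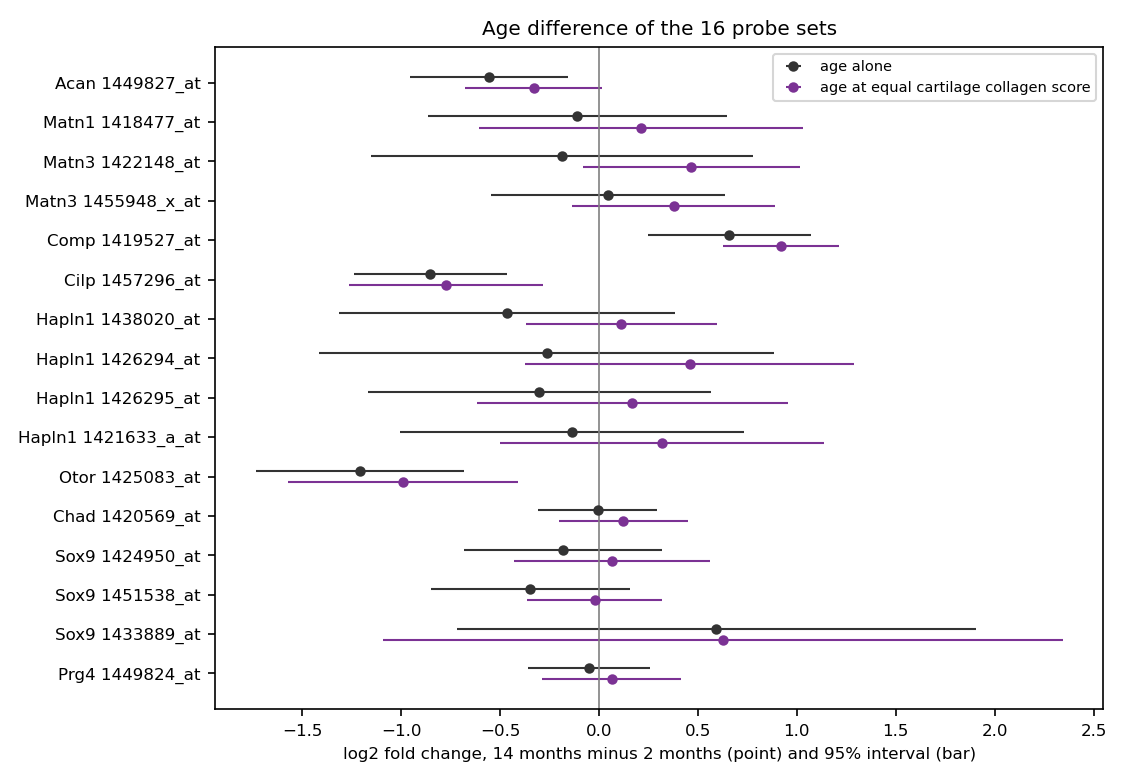
Log2 fold change of the 16 probe sets, 14 months minus 2 months, with 95% intervals, from age alone (black) and at equal cartilage collagen score (purple). The intervals of Otor, Cilp and Comp leave out 0 in both, that of Acan in the fit of age alone, and all others hold 0.

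Other genes of cartilage and its surroundings were described from fixed lists by the brightest probe set of each gene. In every list 0 genes passed an adjusted p under 0.05 in limma, so genes are counted as lower or higher at an unadjusted p under 0.05, which 5.41% and 5.76% of all probe sets passed. Of 7 relatives of the members (Matn2, Matn4, Hapln2, Hapln3, Hapln4, Cilp2 and Vcan), 0 were past that threshold in either direction and the median log2 fold change was -0.30. Cilp2, the closest relative of Cilp, was at -0.36 (adjusted p = 0.609) and Vcan, the versican that resembles aggrecan, at -0.43 (adjusted p = 0.499). Of 9 measured regulators of chondrocytes, made up of transcription factors and Wwp2, 1 was lower, Foxa3 at -0.60 (adjusted p = 0.288). Sox5 and Sox6, the partners of Sox9, were at -0.075 and -0.20, and the median was -0.14.

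Of 19 measured genes of chondroitin sulfate synthesis, which build the chains that aggrecan carries, 2 were lower and 0 higher, with 15 of 19 below 0 and a median of -0.12. Chst12, a sulfotransferase, was at -0.59 (adjusted p = 0.198) and Csgalnact1, which starts the chain, at -0.51 (adjusted p = 0.294). Of 10 genes of aggrecan breakdown and its control, 2 were higher and 0 lower. Mmp3, stromelysin, was at 0.61 (adjusted p = 0.205) and Mmp13, a collagenase that also cuts aggrecan, at 1.08 (adjusted p = 0.317), with no overlap between ages in either. The study named Mmp13 as higher from these same arrays. The aggrecanases Adamts4 and Adamts5 were at -0.76 (standard error 0.84) and 0.058, and the list median was 0.089.

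Of 7 measured genes of hypertrophic cartilage, 2 were lower. Col10a1, the collagen of hypertrophic chondrocytes, averaged 1930 in old and 4823 in young mice, or -1.20 on the log2 scale (adjusted p = 0.362), and Mef2c, a regulator of hypertrophy that many other cells express, was at -0.71 (adjusted p = 0.152). The study selected Col10a1 as lower from these same arrays. Ibsp, a sialoprotein of mineralising matrix, was at 1.26 (adjusted p = 0.461), and the list median was -0.0099. Of 10 genes of perichondrium, tendon and joint surface, 3 were higher and 1 lower, with a median of 0.13. Mkx, a transcription factor of tendon, was at 0.85 (adjusted p = 0.0582), Fmod, the collagen-binding proteoglycan fibromodulin, at 0.57 and Scx, scleraxis, at 0.43, while Tnmd, tenomodulin, was at -0.60. The summed signal of that list ranged from 26894 to 28805 in old and from 22728 to 27495 in young mice. Ogn (log2 fold change 0.0045) and Clu (0.16) made up most of that sum. The part of this list in the difference of Comp, which tendon also makes, was not tested.

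Of 8 markers of fibroblasts, which also make Cilp, 4 were lower in old mice and 0 higher, Col1a1 at -1.58, Col3a1 at -0.76, Pi16 at -0.73 and Col1a2 at -0.58, and the median was -0.34. The summed signal was 70319 to 76687 in old and 87785 to 98453 in young mice, with no overlap and no marker at 0. Dpt, Dcn, Pdgfra and Lum, the other markers of the list, had log2 fold changes from -0.094 (Dpt) to 0.0067 (Lum). The mean signal differed most between ages in Col3a1 (12211.8 in old and 20584.5 in young mice) and Col1a2 (11825.8 and 17742.3). Of the 4 lower markers, the study selected Col1a1, Col1a2 and Col3a1 from these same arrays. Neither their count nor the gap in summed signal is therefore independent evidence. Skeletal muscle genes, 1 of 8 lower (Tnnt3 at -1.09) with a median of -0.12, also summed lower in old mice, at 1633 to 2302 against 2534 to 3295. Tnnt3 and Ckm (-0.46) made up most of that sum, while Acta1, Mylpf and Myh2 were at 0.32, 0.29 and 0.28. Smooth muscle genes, 2 of 7 lower (Myh11 at -0.41 and Smtn at -0.48) and a median of -0.18, overlapped between ages, at 72046 to 83317 in old and 82611 to 95565 in young mice. Epithelial genes overlapped as well, at 96558 to 112751 in old and 98743 to 108082 in young mice, with 2 of 10 higher (Krt8 at 0.33 and Krt5 at 0.31) and a median of -0.032. The part of these cell types in the differences of Cilp, Otor and Acan was not tested.

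Of the neighbouring tissues a dissection could include, oesophagus and squamous epithelium had 1 gene of 6 higher (Krt4 at 1.39) and 1 lower (Sbsn at -0.42), with sums of 1779 to 2840 in old and 1170 to 1427 in young mice and a median of 0.12. Krt4, with a mean of 1422 in old and 540 in young mice, made up most of the sum in old mice. Thyroid had 1 of 4 measured genes higher (Tg at 1.14, dim in both ages), with a median of 0.091, and adipose tissue had 0 of 4 in either direction, with a median of -0.11. Of lymphocyte genes, 4 of 5 measured for B and plasma cells were higher, with a median of 1.98, and 3 of 5 measured for T cells, with a median of 0.54. Their part in the values of the members was not tested.

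The genes whose pattern over the 8 mice was most like that of each member were taken by Pearson's r of log2 signal, among 11081 genes with a mean signal above 200. All arrays share 1 scaling, and r over 8 mice holds the difference between ages as well as that between mice. Cilp was most like Eln, the elastin of elastic fibres (r = 0.991), Col5a2 (0.988) and Mfap5, a protein of microfibrils (0.985), whose log2 fold changes were -1.81, -0.89 and -0.42. Comp was most like Rpgrip1 (0.988), Pik3r6 (0.962) and Coch (0.962). Otor was most like Ank2 (0.977), Gyg (0.975) and Snhg18 (0.974), and Acan most like Plagl1 (0.965), Tmem106b (0.958) and Gab1 (0.955). Chad was most like Cytl1 (0.967), a secreted protein of chondrocytes, Klhl11 (0.961) and Fn1 (0.955).

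Matn3 was most like Wif1, a secreted Wnt inhibitor (0.959), Btbd9 (0.949) and Siae (0.924), and Hapln1 like Blm (0.973), Ppa1 (0.966) and Siae (0.966). Sox9 was most like Mrpl15 (0.961), Ppa1 (0.957) and S100b, a calcium-binding protein of chondrocytes and glia (0.949). Matn1 was most like Usp49 (0.923), Gaa (0.919) and Cep97 (0.903), and Prg4 like Usp49 (0.940), Ino80b (0.933) and Dnm2 (0.929).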

How the data were processed

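Signals of 8 arrays were analysed, 1 per mouse, 4 at 2 months and 4 at 14 months. The authors' methods name robust multichip analysis in Partek software, and the labels name Partek alone. The deposited values are intensity per probe set on a linear scale, with a trimmed mean of 500.002 and a median of 150.0 to 161 on every array, which is not the usual log2 form of that method, so how they were made stays unknown. No detection call was used. Log2 of the signal was compared without a floor or filter. Of 45101 probe sets, 64 controls were left out. Of the rest, 34945 carry 1 symbol in the platform annotation, 932 several and 9160 none, and 0 symbols were changed by the RefSeq table.

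Age was fitted by lmFit and eBayes of limma 3.58.1 (R 4.3.3, two-sided tests), alone or with the cartilage score, with Benjamini-Hochberg adjustment over all 45037 probe sets. The methods' analysis of variance had a second factor that is not named, so it was not fitted. Intervals are at 95%. Where nothing else is said, a p is from limma. Scores were compared by exact permutation over the 70 divisions of 8 mice into 4 and 4. The code was tested on simulated data.

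The members and gene lists were chosen with earlier results of these data known. From each list, the genes past an adjusted p under 0.05, or up to 4 with the smallest p, were to be named, and for each member the 3 genes with the highest r. Scgb1a1, Col2a1, Sox5, Adamts4, Adamts5, Lum, Dcn, Dpt, Pdgfra, Acta1 and Myh2, and the cartilage collagens beyond that number, were named after their values were seen. The alternatives were leaving out each mouse, quantile or median scaling, floors of 32 and 64, the brighter probe sets only, a trended and robust prior, array weights, mouse numbers as a term, an ordinary test, 1 value per gene, other reference genes and a subtracted score. Precision is limited by the number of arrays: within an age, log2 signals had a median SD of 0.157 in brighter probe sets (mean signal above 151) and of 0.491 in dimmer ones. Pairs of arrays correlated at 0.951 to 0.958 within an age and at 0.947 to 0.952 across ages.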

Additional observations from a re-analysis of the deposited data

Results flagged for a closer look

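Of the 32 groups of 4 mice tested for a mouse far from the rest (16 probe sets at both ages), 1 held such a mouse. In the old mice, Sox9 by probe set 1424950_at was 614 in mouse 2 and 519 to 532 in the other 3, and on the log2 scale the gap took up 0.857 of the whole range. Chance alone gives such a gap in about 0.05 of groups, or between 1 and 2 of 32. Young mouse 3, the lowest young mouse in 8 of the 10 genes, did not stand apart by this measure in any probe set.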

How the results depend on the processing

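Otor, Cilp, Acan and Comp kept their direction under all 19 alternatives of both fits. With age alone, Otor ran from -1.36 to -1.07, Cilp from -0.95 to -0.75, Acan from -0.69 to -0.41 and Comp from 0.49 to 0.76 on the log2 scale, with limma's adjusted p from 0.0104 to 0.293, 0.0117 to 0.302, 0.0829 to 0.482 and 0.0494 to 0.437. At equal score they ran from -1.22 to -0.55, -0.90 to -0.48, -0.62 to -0.19 and 0.60 to 1.03, with adjusted p from 0.0795 to 0.893, 0.0939 to 0.879, 0.130 to 0.879 and 0.0043 to 0.713. Among the brighter probe sets and with the trended and robust prior, 2 member probe sets passed an adjusted p under 0.05 as lower with age alone and 1 (Comp) as higher at equal score, where 2 passed an unadjusted p as higher. With that prior, 1 (Comp) passed as higher with age alone. The cause was not tested.

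Leaving out 1 mouse gave 3 to 6 probe sets lower at an unadjusted p under 0.05 with age alone, 6 without young mouse 3. At equal score it gave 0 to 3 lower, 0 without young mouse 3, and 1 to 2 higher, 2 without young mouse 4, young mouse 7 or old mouse 1. The signs that turned belong to members other than Otor, Cilp, Acan and Comp. With age alone the ranges on leaving out 1 mouse were -0.36 to 0.18 for Matn1, -0.48 to 0.062 for Matn3 1422148_at, -0.17 to 0.18 for Matn3 1455948_x_at, -0.47 to 0.083 for Hapln1 1421633_a_at, -0.12 to 0.063 for Chad and -0.15 to 0.051 for Prg4. At equal score they were -0.28 to 0.45 for Matn1, -0.085 to 0.24 for Hapln1 1438020_at, -0.060 to 0.73 for 1426294_at, -0.040 to 0.32 for 1426295_at, -0.27 to 0.58 for 1421633_a_at, -0.13 to 0.18 for Chad, -0.35 to 0.18 for Sox9 1424950_at, -0.21 to 0.086 for Sox9 1451538_at and -0.16 to 0.12 for Prg4. With array weights Chad was at 0.0046, and with a gene's probe sets averaged Sox9 was at 0.022.

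With the score of the other chondrocyte genes, 4 probe sets were lower at equal score at an unadjusted p under 0.05 (2 with the collagens), and the score itself turned to 0.084. Matn1 was then at -0.22, Matn3 at -0.33 and -0.043, Hapln1 at -0.60 (1438020_at), -0.45 (1426294_at), -0.43 (1426295_at) and -0.27 (1421633_a_at), Chad at -0.048, Sox9 1424950_at at -0.26 and Prg4 at -0.093. With Col2a1 alone as the reference, Matn1 was at -0.044, Matn3 1422148_at at -0.049, Hapln1 at -0.34, -0.10, -0.20 and -0.034 in the same order, Sox9 1424950_at at -0.12 and Prg4 at -0.027. With the score subtracted, 1 probe set was lower, Hapln1 1438020_at was at -0.095 and Sox9 1451538_at at 0.024. Sox9 1433889_at lies under a signal of 64 on all arrays and had no value at that floor. The other alternatives changed no direction. No paired analysis was possible because the old and young mice share no number in the labels. Mouse numbers 1 to 4 against 5 to 8 as a term changed no call. Dim probe sets have the widest spread, and 4 mice per age limit every value.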
